A study of Homo sapiens with 6 samples.

Results

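The genes described are 10 repressors and output factors of the circadian clock, taken by name from the 58219 gene identifiers counted in SNU-449, a human cell line from a hepatocellular carcinoma. They are PER1, PER2, PER3, CRY1, CRY2, NR1D1, NR1D2, DBP, TEF and BHLHE40, and all 10 had enough counts to be tested. Polyadenylated RNA was sequenced from 3 libraries of cells stably expressing wild-type Yes (Yes WT) and 3 libraries of cells stably expressing Yes T348I, a form of this SRC family tyrosine kinase changed at its gatekeeper residue. Both groups were given the kinase inhibitor dasatinib at 100 nM, so the comparison asks which transcripts differ between the 2 lines under the drug. Cells without the drug were not analysed here. The promoter of the transgene, the number of clones in each line, the hour of harvest and any step to synchronise the cells are not in the labels. Neither is it said that replicates were separate cultures, so p-values measure the spread among 3 libraries of a line, and that spread may be technical.

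The circadian clock is a transcriptional feedback loop that runs in most cells of the body, liver cells included. The activators CLOCK (or its relative NPAS2) and BMAL1 bind E-box sequences and switch on the PER and CRY genes, whose proteins return to the nucleus and inhibit those activators. NR1D1 and NR1D2 encode the REV-ERB nuclear receptors, which repress BMAL1 and compete with the ROR receptors. DBP and TEF belong to the PAR bZIP family and pass the rhythm on through D-box sequences, while BHLHE40 (DEC1) competes at E-boxes. In unsynchronised cultures each cell keeps its own phase, and a bulk library gives the mean over all phases.

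Sequences that E-box and D-box factors are known to bind lie close to the start sites of most of these genes, and they are shown because the loop is known to act through them. RefSeq promoter windows (GRCh38.p14, 250 bases before to 50 after a start site) matched all 10 genes, with 14 windows in all. The E-box was searched as CACGTG and its variant, the E'-box, as CACGTT, on both strands. CACGTG occurred in 5 of the 14 windows, those of PER1, NR1D2, TEF and BHLHE40, and in 7.26% of all 35116 windows. CACGTT occurred in 4 of the 14, those of PER2, CRY1, CRY2 and NR1D1, and in 5.34% of all windows. The motifs were chosen after the windows were seen, and all windows were not matched for base content. The shares therefore do not test enrichment. Each line below is a 30-base stretch on the strand of the gene, with the motif in capitals; AACGTG is CACGTT read on the other strand.
PER1, chr17:8152560-8152589, minus strand: agcacccaggtcCACGTGcgcccgtgtgtg
PER2, chr2:238288790-238288819, minus strand: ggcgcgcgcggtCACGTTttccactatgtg
CRY1, chr12:107093621-107093650, minus strand: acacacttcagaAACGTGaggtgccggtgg
CRY2, chr11:45847275-45847304, plus strand: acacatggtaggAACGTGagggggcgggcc
NR1D1, chr17:40100740-40100769, minus strand: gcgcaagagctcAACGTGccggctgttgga
NR1D2, chr3:23945954-23945983, plus strand: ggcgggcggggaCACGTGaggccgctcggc
TEF, chr22:41367248-41367277, plus strand: gcgcgacagctcCACGTGctgcagctggcg
BHLHE40, chr3:4979187-4979216, plus strand: tccaaCACGTGagactcatgtgatgaagcc

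NR1D2 held a second CACGTG in the same window and TEF held one in each of its 2 windows. The D-box was searched as TTANGTAA (2.18% of all windows) and TTATGNAA (3.30%), 2 forms that overlap in TTATGTAA. Each form occurred in 3 of the 14 windows, the first in PER2, PER3 and NR1D2 and the second in PER1, PER3 and NR1D2. PER3 had a D-box and neither form of E-box. TTACATAA, in NR1D2, is TTATGTAA read on the other strand.
PER1, chr17:8152416-8152445, minus strand: agtgcccggcaTTATGCAAcccgcctcccc
PER2, chr2:238288595-238288624, minus strand: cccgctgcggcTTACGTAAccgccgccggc
PER3, chr1:7784103-7784132, plus strand: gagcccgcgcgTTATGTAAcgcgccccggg
NR1D2, chr3:23945916-23945945, plus strand: gtgacgcggcaTTACATAAtgggcgctgag
The cAMP response element TGACGTCA (1.85% of all windows) and the ROR elements, AGGTCA or GGGTCA directly after AANT (0.168% and 0.211%), were found in none of the 14 windows.

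DBP is the one gene of the 10 whose window held none of these motifs. Its stretch upstream of annotated exons (chr19:48637439-48637629, minus strand) is given because DBP differed most between the lines.
DBP: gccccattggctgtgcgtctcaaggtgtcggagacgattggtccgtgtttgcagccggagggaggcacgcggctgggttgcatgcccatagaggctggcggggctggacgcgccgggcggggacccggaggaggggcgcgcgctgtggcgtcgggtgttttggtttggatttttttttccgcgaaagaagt
A match is a string of letters in a window and was not measured as a bound site. Of the genes that fell (below), PER1 had CACGTG and a D-box, PER2 CACGTT and a D-box, BHLHE40 CACGTG alone and DBP none. PER1, PER2 and BHLHE40 thus each held a form of the E-box. Sequence outside the windows was not searched, and the part of any motif in the falls was not tested.

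YES1, the gene for Yes, was at 364 ± 6.17 CPM in Yes WT and at 409 ± 26.2 CPM in Yes T348I (SD, n = 3 each), values that cannot tell the transgene from the cell's own gene or the mutant from the wild type. Library totals ran from 14360137 to 19608763 counts, and the libraries of a group correlated at 0.995 to 0.996 (log2 CPM, across genes) against 0.982 to 0.985 between groups. Of 8 hepatocyte markers only SERPINA1, TF and AFP had enough counts to be tested. ALB, not tested, stood at 0.611 ± 0.0575 CPM (counts per 1000000 counts of the library; SD, n = 3) in Yes WT, against 0.288 ± 0.0174 CPM in Yes T348I. Those ALB levels rested on 8 to 10 counts per library in Yes WT and 4 to 6 in Yes T348I. The summed hepatocyte markers were 4.91 to 5.93 CPM in Yes WT and 2.61 to 4.36 CPM in Yes T348I. Among them TF fell from 2.19 ± 0.639 to 0.785 ± 0.523 CPM (edgeR adjusted p = 1.58e-04), while AFP (adjusted p = 0.056) and SERPINA1 (adjusted p = 0.55) did not pass. SERPINA1 had the opposite sign, at 0.847 ± 0.223 and 0.973 ± 0.418 CPM. Mesenchymal markers (VIM, FN1, CDH2 and ZEB1) summed to 7116 to 7160 CPM and 7383 to 7727 CPM, and epithelial markers (KRT8, KRT18, EPCAM and CDH1) to 423.7 to 440.2 CPM and 411 to 452 CPM. The leukocyte marker CD3E was at 0 in all libraries, and its list summed to 2.35 to 2.88 CPM and 0.282 to 1.23 CPM. The endothelial markers PECAM1, CDH5, VWF and KDR summed to 1.14 to 1.53 CPM and 0.480 to 0.564 CPM. Hepatocyte, leukocyte, endothelial and mesenchymal sums thus did not overlap between the lines. Single genes carried some of them: VIM made up most of the mesenchymal sum (6201 ± 33.5 and 6726 ± 190 CPM) while FN1 fell from 719 ± 20.8 to 549 ± 11.3 CPM (edgeR adjusted p = 1.26e-13). CD14 made up most of the leukocyte sum (2.43 ± 0.279 and 0.721 ± 0.467 CPM), and within the overlapping epithelial sum CDH1 fell from 3.35 ± 0.518 to 1.47 ± 0.298 CPM (edgeR adjusted p = 8.47e-06). The markers' part in the results below was not tested.

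CRY1 was higher and DBP, BHLHE40, PER1 and PER2 were lower in Yes T348I, while PER3, CRY2, NR1D1, NR1D2 and TEF did not pass the test. The group therefore moved in both directions. In edgeR's quasi-likelihood test, with Benjamini-Hochberg adjustment of p-values across the 14723 genes that could be tested and a threshold of 0.05, 1 of the 10 rose and 4 fell. That is 5 of 10 against 55.3% of all genes, 28.0% higher and 27.3% lower, so the share called was near that of genes in general. None of the 10 changed 2-fold, against 4.08% of all genes, or 3.21% counting falls alone. Against a minimum change of 1.2-fold 3 passed (CRY1, DBP and BHLHE40), against 21.9% of all genes. The median log2 fold change of the 10 was -0.20, against -0.01 over all genes. Each fold change sets Yes T348I over Yes WT, SE is the standard error of a log2 fold change, and levels are CPM scaled by TMM. In bulk RNA, fewer cells that express a gene and less RNA of it per cell cannot be told apart.

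Of the period genes 2 fell and PER3 did not pass. PER1 (ENSG00000179094.15, chromosome 17, 8140472 to 8156506, minus strand), which responds acutely to hormones and cAMP besides its E-box control, stood at 11.9, 10.035 and 12.2 CPM in Yes WT replicates 1 to 3 and at 8.87, 9.26 and 8.25 CPM in Yes T348I replicates 1 to 3. All 3 Yes T348I libraries were below the lowest of Yes WT, and the log2 fold change was -0.37 (SE 0.10, edgeR adjusted p = 0.0019). PER2 (chromosome 2, 238244038 to 238290102, minus strand), a scaffold of the repressor complex, stood at 10.999, 9.27 and 9.36 CPM in Yes WT and at 7.84, 7.82 and 8.04 CPM in Yes T348I. The groups again did not overlap, with 1 Yes WT library well above the other pair, and the log2 fold change was -0.33 (SE 0.11, edgeR adjusted p = 0.0078). This call rested on that library: without Yes WT replicate 1 the log2 fold change was -0.24 and the adjusted p 0.092. It was also lost with DESeq2 (adjusted p = 0.056), and neither PER1 (adjusted p = 0.18) nor PER2 (adjusted p = 0.32) passed against a minimum change of 1.2-fold.

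PER3 (chromosome 1, 7784320 to 7845177, plus strand), a relative that mouse clocks can run without, had a fold change of the opposite sign. Its levels were 17.4, 18.3 and 19.3 CPM in Yes WT and 20.05, 21.1 and 19.3 CPM in Yes T348I. The lowest Yes T348I value fell just below the highest of Yes WT. The log2 fold change of 0.14 (SE 0.07, 95% interval -0.01 to 0.28) did not pass (edgeR adjusted p = 0.12). UTS2, on the opposite strand, shares 868 exon bases with PER3 (10.7% of its length), and Z98884.1 shares 482. Of the reads at PER3, 1.42% were on that strand.

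CRY1 rose and CRY2 did not pass. The cryptochromes are the strongest direct inhibitors of CLOCK and BMAL1. CRY1 (ENSG00000008405.11, chromosome 12, 106991364 to 107093829, minus strand) stood at 30.9, 32.0 and 30.2 CPM in Yes WT and at 47.6, 46.6 and 42.7 CPM in Yes T348I. The groups were far apart compared with their spread, with means of 31.0 ± 0.952 and 45.6 ± 2.57 CPM (SD, n = 3 each), a 1.48-fold rise (log2 fold change 0.56, SE 0.06, edgeR adjusted p = 2.79e-11). CRY1 was the one gene of the 10 that rose. CRY2 (chromosome 11, 45847118 to 45883248, plus strand) stood at 8.43, 7.89 and 7.02 CPM in Yes WT and at 8.20, 7.89 and 7.90 CPM in Yes T348I. All Yes T348I values lay within the range of Yes WT, and the log2 fold change was 0.04 (95% interval -0.18 to 0.26, adjusted p = 0.79).

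The REV-ERB receptor genes showed small or no differences. NR1D1 (chromosome 17, 40092787 to 40100725, minus strand), which encodes REV-ERB alpha, stood at 10.8, 10.2 and 9.90 CPM in Yes WT and at 9.13, 9.81 and 8.39 CPM in Yes T348I. The values did not overlap, but by a margin smaller than the spread in either group. The log2 fold change of -0.18 (SE 0.10, 95% interval -0.38 to 0.03) did not pass (edgeR adjusted p = 0.13). THRA, on the opposite strand, shares 263 exon bases with NR1D1 (9.49% of its length). Of the reads at NR1D1, 10.6% were on that strand, and their part was not tested. NR1D2 (chromosome 3, 23945260 to 23980618, plus strand), which encodes REV-ERB beta, stood at 27.9, 25.8 and 29.9 CPM in Yes WT and at 28.4, 29.2 and 27.6 CPM in Yes T348I. Its log2 fold change was 0.03 (95% interval -0.10 to 0.16, adjusted p = 0.74). Groups without overlap were seen for 6 of the 10 genes (NR1D1 and the 5 called), against 59.5% of all genes.

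DBP had the largest difference of the group. DBP (ENSG00000105516.10, chromosome 19, 48630030 to 48637438, minus strand), a PAR bZIP activator named for its binding to the albumin promoter and a classic readout of E-box drive, stood at 8.19, 7.61 and 8.63 CPM in Yes WT and at 4.82, 3.84 and 4.79 CPM in Yes T348I. Every Yes T348I library was well below every Yes WT library, at a mean 0.554 of the Yes WT level (log2 fold change -0.85, SE 0.13, edgeR adjusted p = 2.47e-07). These levels rest on 56 to 134 counts per library. SPHK2, on the opposite strand, shares 661 exon bases with DBP (10.1% of its length), and 32.8% of the reads at DBP were on that strand. The opposite strand held 46, 45 and 55 reads in Yes WT and 61, 45 and 36 in Yes T348I, replicates 1 to 3. Counts without strand information gave a log2 fold change of -0.85. Such counts leave out reads in exons shared with SPHK2, so they do not check the opposite-strand reads, whose part was not tested. TEF (chromosome 22, 41367333 to 41399326, plus strand), its close relative, stood at 6.11, 5.88 and 5.08 CPM in Yes WT and at 5.79, 4.46 and 4.16 CPM in Yes T348I. Yes T348I replicate 1 lay among the Yes WT values and the other two below them, and the log2 fold change of -0.22 (SE 0.14) did not pass (adjusted p = 0.19). Without that library it was -0.39 and passed (adjusted p = 0.034).

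BHLHE40 (ENSG00000134107.4, chromosome 3, 4979116 to 4985323, plus strand), a basic helix-loop-helix repressor that is also induced by hypoxia and growth signals, stood at 70.7, 66.4 and 73.4 CPM in Yes WT and at 56.5, 53.4 and 50.0 CPM in Yes T348I. It had the most counts of the 10, from 709 to 1157 per library. The groups did not overlap, and the log2 fold change was -0.39 (SE 0.05, edgeR adjusted p = 7.74e-09), or 0.762 of the Yes WT level.

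Per length of annotated exon, BHLHE40 was the most abundant of the 10 in both lines, at 18.3 ± 0.928 CPM per kilobase in Yes WT and 13.9 ± 0.850 in Yes T348I (SD, n = 3 each). CRY1 followed at 6.13 ± 0.188 and 9.02 ± 0.509, then NR1D2 at 4.79 ± 0.3504 and 4.88 ± 0.142, NR1D1 at 3.72 ± 0.156 and 3.29 ± 0.256, and PER3 at 2.27 ± 0.118 and 2.49 ± 0.108 CPM per kilobase. Each of these 5 was separated from the next in every library of its line. PER1, PER2, CRY2, DBP and TEF lay between 1.21 and 1.62 CPM per kilobase in Yes WT, where neighbours in that order overlapped. In Yes T348I DBP was the lowest, at 0.685 ± 0.0853 CPM per kilobase, below all TEF libraries. The per-length scale assumes that all annotated exons are used, which was not tested. For DBP these exons cover 6544 bases, most of its span (48630030 to 48637438), so its low rank is uncertain.

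**Figure D1:**
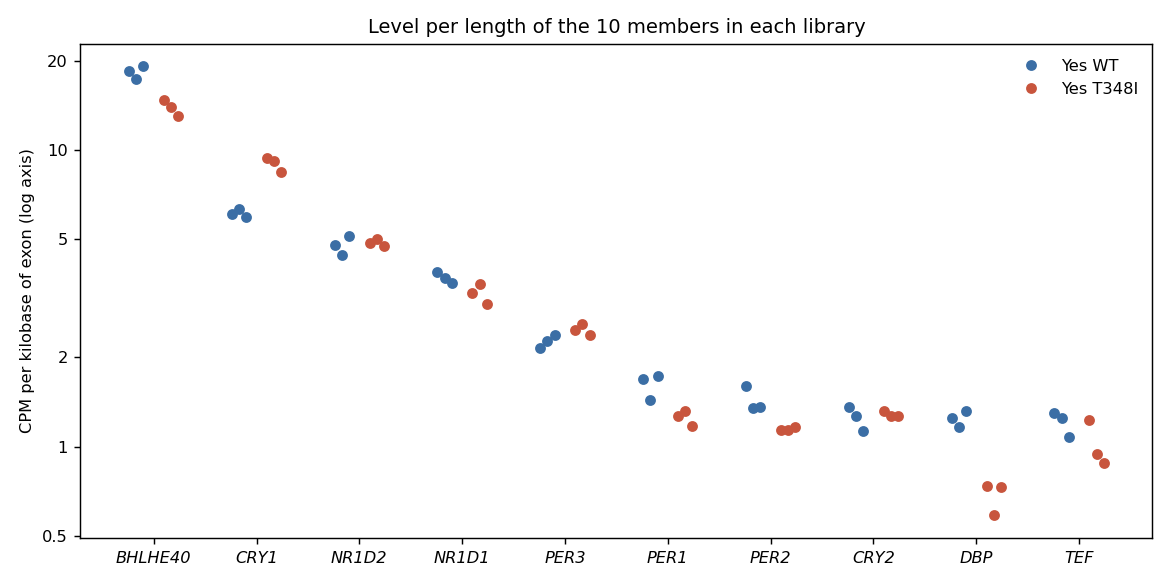
Level per kilobase of annotated exon (log axis) of the 10 genes in each library, ordered by the Yes WT mean. BHLHE40, CRY1, NR1D2, NR1D1 and PER3 keep the same order in both lines, and DBP moves from among the lowest genes to the lowest of all.

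Ratios within a library compare relatives, and depend on scaling between libraries only through a pseudocount. The log2 ratio of CRY1 to CRY2 was 1.81, 1.96 and 2.03 in Yes WT and 2.47, 2.49 and 2.36 in Yes T348I, a difference of 0.51 between the group means. That of DBP to TEF was 0.39, 0.35 and 0.71 in Yes WT and -0.24, -0.19 and 0.18 in Yes T348I, a difference of -0.57. DBP thus exceeded TEF in CPM in every Yes WT library and in 1 of 3 Yes T348I libraries. PER1 and PER2 kept to each other (log2 ratio 0.19 ± 0.15 and 0.14 ± 0.10, SD, n = 3 each), and both fell relative to PER3, by 0.48 and 0.43 on the log2 scale. The ratio of NR1D1 to NR1D2 differed by -0.20, with overlapping groups. These 6 ratios used a pseudocount of 0.5 CPM, which shrinks ratios of genes at low levels such as DBP and TEF. In exact two-sided permutation tests the 4 ratios whose groups did not overlap had p = 0.10, the smallest that 3 against 3 allows, NR1D1 to NR1D2 had p = 0.20 and PER1 to PER2 had p = 0.70. Adjusted over the 6 pairs these were 0.15, 0.24 and 0.70, so no ratio could pass in this design.

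**Figure D2:**
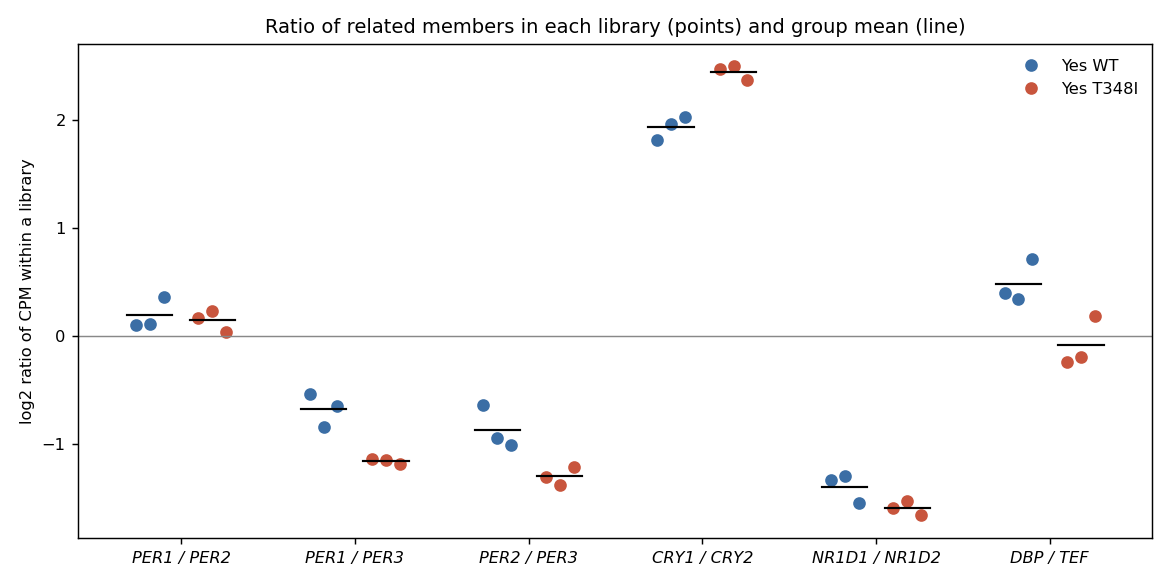
Log2 ratio of CPM of 2 related genes within each library, blue for Yes WT and red for Yes T348I, with a line at each group mean. The groups do not overlap for PER1 to PER3, PER2 to PER3, CRY1 to CRY2 and DBP to TEF.

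Of the activator genes BMAL2 rose, BMAL1 and NPAS2 fell and CLOCK did not pass. BMAL1 (ARNTL), the partner of CLOCK, stood at 8.74, 8.72 and 7.49 CPM in Yes WT and at 6.72, 7.68 and 6.20 CPM in Yes T348I. The groups overlapped at 1 library each, and the log2 fold change of -0.28 (SE 0.12) passed narrowly (edgeR adjusted p = 0.038). This call did not hold without Yes WT replicate 1 (adjusted p = 0.13) or 2 (0.11) or without Yes T348I replicate 1 (0.11) or 3 (0.16), nor with DESeq2 (0.15), no low-count filter (0.099) or unstranded counts (0.059).

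NPAS2, which can stand in for CLOCK, stood at 40.1, 44.2 and 42.9 CPM in Yes WT and at 25.9, 26.5 and 27.6 CPM in Yes T348I. It fell by 0.67 on the log2 scale (SE 0.06, edgeR adjusted p = 5.78e-13). CLOCK itself was at 42.6 ± 1.22 and 41.7 ± 4.02 CPM (SD, n = 3 each; log2 fold change -0.03, 95% interval -0.15 to 0.09). BMAL2 (ARNTL2), a relative of BMAL1, stood at 56.0, 53.2 and 50.5 CPM in Yes WT and at 76.1, 81.9 and 90.1 CPM in Yes T348I. Its log2 fold change was 0.63 (SE 0.05, edgeR adjusted p = 9.69e-14). Both NPAS2 and BMAL2 were separated in every library, whereas CLOCK overlapped.

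RORA, a receptor that activates the sites REV-ERB represses, was scarce in both lines (0.904 ± 0.207 CPM against 0.752 ± 0.278 CPM, Yes WT first, SD, n = 3 each) and did not pass (edgeR adjusted p = 0.48).

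**Figure D3:**
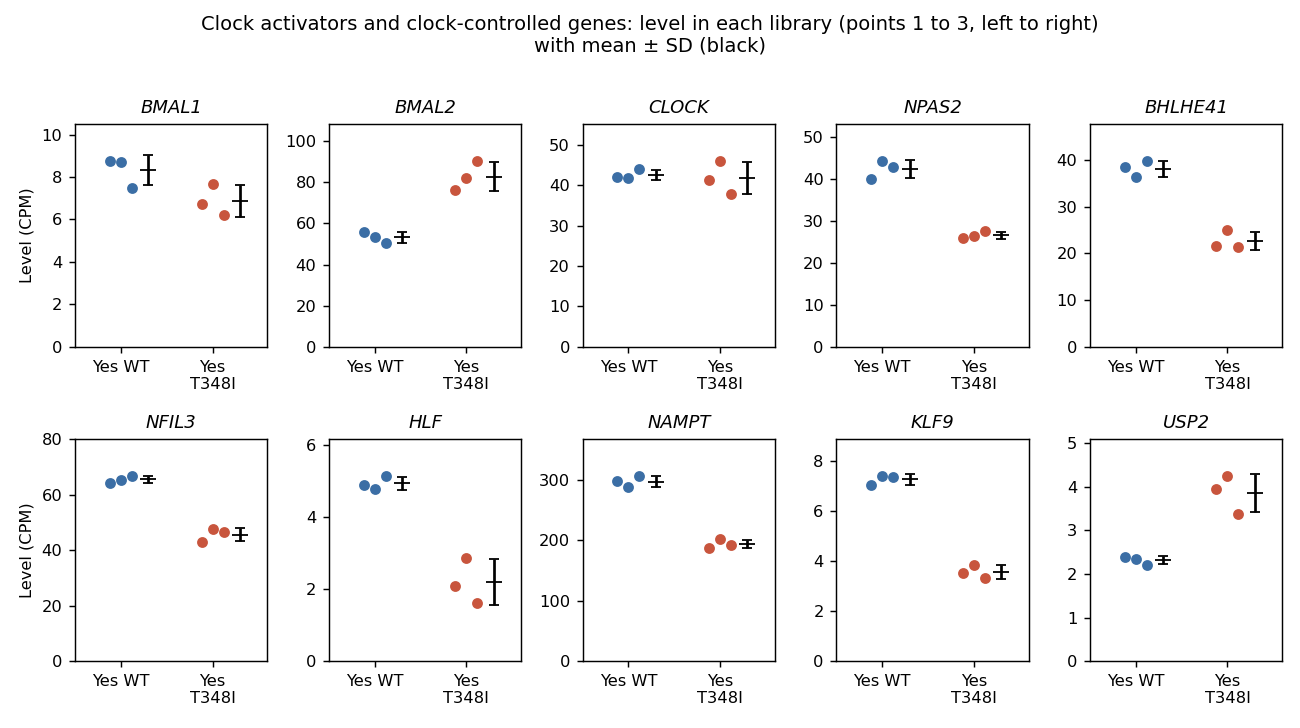
Level in CPM (vertical axes from 0) of 4 activators and 6 clock-controlled genes, chosen after their values were seen, in each Yes WT (blue) and Yes T348I (red) library with mean and SD in black. BMAL2 and USP2 lie higher in all Yes T348I libraries, NPAS2, BHLHE41, NFIL3, HLF, NAMPT and KLF9 lie lower, and BMAL1 and CLOCK overlap.

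Of 11 other clock-controlled genes, all tested, 6 fell and 2 rose, with a median log2 fold change of -0.29. That is 72.7% called, beside 55.3% of all genes (27.3% lower and 28.0% higher). HLF, the remaining PAR bZIP gene, stood at 4.89, 4.78 and 5.15 CPM in Yes WT and at 2.10, 2.88 and 1.62 CPM in Yes T348I. It fell by 1.17 on the log2 scale (SE 0.18, edgeR adjusted p = 3.28e-07). NFIL3 (E4BP4), which represses the same D-box sites, fell as well, from 65.5 ± 1.30 to 45.7 ± 2.44 CPM (SD, n = 3 each; log2 fold change -0.53, adjusted p = 3.64e-12). The D-box activators DBP and HLF and the D-box repressor NFIL3 were therefore lower in Yes T348I, while the related activator TEF did not pass (log2 fold change -0.22).

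BHLHE41 (DEC2), the close relative of BHLHE40, stood at 38.4, 36.3 and 39.7 CPM in Yes WT and at 21.6, 24.96 and 21.4 CPM in Yes T348I. It fell by 0.75 on the log2 scale (SE 0.06, edgeR adjusted p = 2.88e-13), so both DEC genes were lower in every Yes T348I library. CIART, a further repressor of CLOCK and BMAL1, fell from 13.5 ± 0.732 to 10.999 ± 0.4996 CPM (adjusted p = 0.0060). NAMPT, the rate-limiting enzyme of NAD salvage, fell from 297 ± 9.57 to 194 ± 6.99 CPM (adjusted p = 6.30e-19), and the factor KLF9 from 7.26 ± 0.206 to 3.56 ± 0.264 CPM (adjusted p = 1.65e-08). The deubiquitinase gene USP2 rose from 2.31 ± 0.0943 to 3.86 ± 0.440 CPM (adjusted p = 4.40e-04) and KLF10 from 42.8 ± 0.530 to 58.5 ± 2.63 CPM (adjusted p = 4.29e-10). WEE1, ALAS1 and PPARGC1A did not pass, with log2 fold changes of 0.10, 0.00 and -0.04. WEE1, a kinase that holds back mitosis, passed without Yes T348I replicate 2 (log2 fold change 0.16, adjusted p = 0.022).

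**Figure D4:**
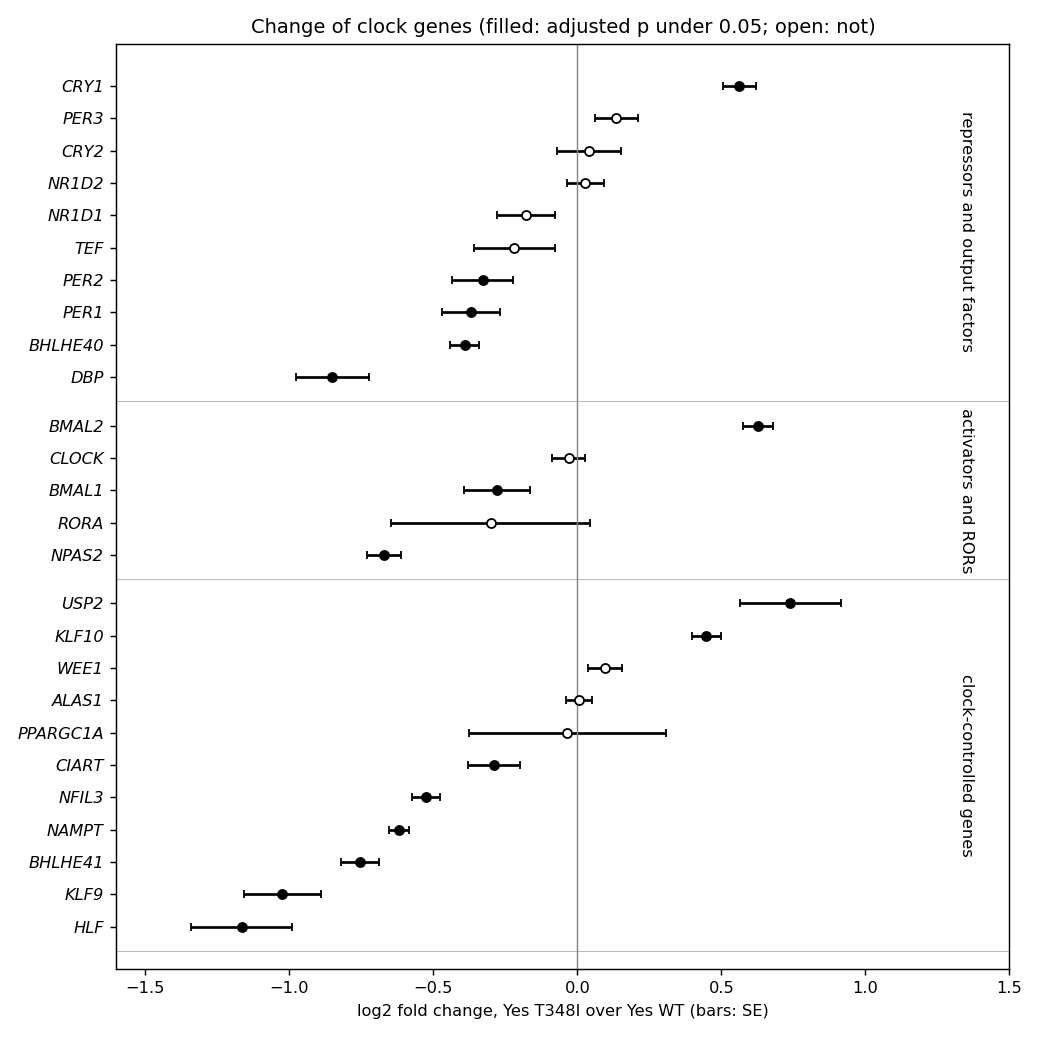
Log2 fold change, Yes T348I over Yes WT, with SE bars for the 10 genes, for activators and a receptor gene and for clock-controlled genes. Filled points passed an adjusted p of 0.05, and the filled points right of 0 are CRY1, BMAL2, USP2 and KLF10.

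The kinases, ubiquitin ligases and corepressors that act on PER, CRY and REV-ERB proteins are grouped next. Of 18 tested, 6 rose and 2 fell (44.4% called, beside 55.3% of all genes), and their median log2 fold change was 0.08. The median size of change was 0.11 on the log2 scale, against 0.23 over all genes. CSNK1A1 and CSNK2A1, kinases that phosphorylate clock proteins, rose by log2 fold changes of 0.23 and 0.22 (edgeR adjusted p = 1.83e-06 and 1.14e-06). CSNK2A1 has a close retrogene copy, so its count is uncertain. TIMELESS, a replication fork protein with a proposed clock role, rose from 88.6 ± 3.75 to 97.6 ± 4.18 CPM (SD, n = 3 each; log2 fold change 0.14, adjusted p = 0.0039). NCOR1, the corepressor that REV-ERB recruits, and the AMP kinase gene PRKAA1 rose by 0.11 each (adjusted p = 0.012 and 0.022). The other AMP kinase gene PRKAA2 fell from 19.6 ± 1.21 to 15.4 ± 2.11 CPM (adjusted p = 5.71e-04), and the demethylase gene KDM5A by 0.13 (adjusted p = 0.016).

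CSNK1D, CSNK1E, CSNK2B, GSK3B, FBXL21, FBXW11, BTRC, NONO, SIRT1 and HDAC3 did not pass, with log2 fold changes of -0.13 (FBXL21) to 0.15 (CSNK2B). CSNK1D passed with upper quartile scaling (-0.12, adjusted p = 0.0038), with library size only (0.0064) and with unstranded counts (0.027). Several of these small calls were gained or lost when any of several single libraries was left out, or with another setting. PRKAA1 was lost without Yes WT replicate 1 or 3 or Yes T348I replicate 2 (adjusted p = 0.12, 0.074 and 0.070), and NCOR1 without Yes WT replicate 2 or 3 or Yes T348I replicate 2 (0.075, 0.062 and 0.11). Both were also lost with upper quartile scaling (adjusted p = 0.15 and 0.11) and library size only (0.13 and 0.097), and PRKAA1 with DESeq2 (0.071). KDM5A was lost without Yes WT replicate 1 or Yes T348I replicate 1 (0.11 and 0.14), which left 1 gene falling, and with DESeq2 (0.074) or no low-count filter (0.11). CSNK2B passed without Yes T348I replicate 3 (0.025) and with unstranded counts (0.048).

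PER1 and KLF9 are also glucocorticoid receptor targets, and BHLHE40 is a target of hypoxia-inducible factors, so both pathways were read from lists. The 15 tested genes of the glucocorticoid list split, with 5 higher and 6 lower (73.3% called, beside 55.3% of all genes) and a median log2 fold change of -0.07. SGK1 rose from 81.9 ± 0.301 to 142 ± 4.05 CPM (SD, n = 3 each), while PDK4 fell from 34.5 ± 0.615 to 12.8 ± 0.998 CPM, ERRFI1 from 278 ± 5.94 to 196 ± 7.04 CPM and CEBPD from 43.1 ± 2.17 to 23.9 ± 1.87 CPM. The receptor gene NR3C1, itself counted in this list, was at 150 ± 5.13 and 143 ± 3.02 CPM and did not pass (edgeR adjusted p = 0.10). KLF9 was counted both here and among the clock-controlled genes. The 16 tested genes of the hypoxia list split as well, with 4 higher and 6 lower and a median log2 fold change of 0.04, and their 62.5% called is near the 55.3% of all genes. NDRG1 fell from 81.8 ± 4.56 to 30.9 ± 1.96 CPM, EPAS1 from 181 ± 1.72 to 121 ± 4.03 CPM and HIF1A from 1277 ± 35.0 to 1005 ± 19.4 CPM, while ADM rose from 59.5 ± 2.85 to 84.5 ± 3.45 CPM. HIF1A and EPAS1, genes of the hypoxia-inducible factors themselves, were counted in the hypoxia list and among its lower genes. Both lists held called genes in each direction.

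For the called gene of lowest adjusted p in each direction, the nearest profiles over the 6 libraries were sought among 13205 other genes of at least 1 CPM, by the root mean square difference of centred log2 levels. Nearest to CRY1 were FIGNL1 (0.026), BDNF (0.032) and PITX1 (0.034), and nearest to BHLHE40 were BLVRB (0.024), PTH2R (0.027) and APOL6 (0.028). With 2 groups of libraries this measure mainly finds genes with a fold change of the same size, here 0.53 to 0.61 beside CRY1 and -0.42 to -0.38 beside BHLHE40.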

How the data were processed

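The authors deposited, for each library, a file of unnormalised gene counts. Tools named in the submitters' processing notes are STAR 2.5.1b, Trimmomatic 0.35 and CASAVA 1.8.2, with GRCh38 as the build and no roles. Their gene annotation was not given in the sources used. The files have the layout of STAR's gene counts. Its reverse-strand counts were taken because the library kit is stranded, per the labels, and the opposite strand summed to 6.13% to 6.59% of that total. Lines that name no gene were left out of all totals. Of uniquely mapped reads they held 6.37% to 7.87% (no gene) and 3.11% to 3.15% (more than 1 gene).

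Of 58219 identifiers, 41844 had a symbol in a table of gene names, and 57881 were in GENCODE release 29 (GRCh38), which gave positions and exon lengths. Genes were kept by filterByExpr (minimum count 10), scaled by TMM and tested in R 4.3.3 with edgeR 4.0.16 (quasi-likelihood, no covariate); intervals of fold changes use its standard error. On simulated data with few genes changed, over 14529 genes it called 47.8% of the 67 changed 1.2-fold, 80.6% of the 67 at 1.5-fold and 98.5% of the 66 at 2-fold. In the data themselves 55.3% of genes were called, which alters the adjustment of p-values. These rates therefore do not carry over to the calls above. DESeq2 1.42.0, limma 3.58.1, other scalings, filters, strands and left-out libraries were alternatives. Genes named are the 10 members, genes of the 3 clock lists and markers (some genes of these lists are not reported here), the 4 of lowest adjusted p in the glucocorticoid and hypoxia lists (besides NR3C1, named outside the rule), and nearest profiles. Members and lists were chosen with earlier results of these data known, and the motifs after the windows were seen.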

Additional observations from a re-analysis of the deposited data

How the results depend on the processing

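CRY1, DBP and BHLHE40 kept direction and call in all 15 alternatives, with log2 fold changes of 0.52 to 0.61, -0.91 to -0.76 and -0.43 to -0.34. PER1 lost its call only against a minimum change of 1.2-fold (log2 fold change -0.37, adjusted p = 0.18), and PER2 lost it there (-0.33, adjusted p = 0.32), with DESeq2 (-0.32, adjusted p = 0.056) and without Yes WT replicate 1. Against that minimum change 1394 genes were higher and 1835 lower, and 2 of the 10 were lower, as a stricter test must give. CRY2 turned sign with upper quartile factors (-0.0010), and NR1D2 with upper quartile factors (-0.013) or library size only (-0.010). Of the kinases and other components 1 gene was lower with DESeq2 and 1 with no low-count filter, against 2. The gene lost was KDM5A (adjusted p = 0.074 with DESeq2 and 0.11 with edgeR without the filter), while PRKAA2 kept its call. Why KDM5A lost it was not tested.

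With each library left out in turn, the 10 genes gave 1 higher and 3 to 5 lower, and log2 fold changes of -0.45 to -0.32 (PER1), -0.37 to -0.24 (PER2), 0.10 to 0.17 (PER3), -0.027 to 0.11 (CRY2), -0.22 to -0.12 (NR1D1), -0.022 to 0.081 (NR1D2) and -0.39 to -0.12 (TEF). Kinases and other components gave 4 to 7 higher and 1 to 2 lower. The PER1 to PER2 ratio difference ran from -0.091 to 0.038. Among single genes outside the 10, ALAS1 turned sign with upper quartile factors (-0.036) or library size only (-0.033) and ran from -0.012 to 0.019 with libraries left out. CLOCK (-0.094 to 0.035), SIRT1 (-0.056 to 0.013) and PPARGC1A (-0.16 to 0.13) also changed sign when single libraries were left out.

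No shared effect of the replicate number was visible: deviations from the group mean of libraries with the same number correlated at -0.028, 0.0014 and -0.019. Such correlations cannot show whether libraries were handled in pairs. In the fit with a replicate block, 4054 genes were higher and 3936 lower, and the 10 again gave 1 higher and 4 lower. DBP and TEF, with 56 and 59 counts in their lowest libraries, are the least precise of the 10.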
